A study of Caenorhabditis elegans with 24 samples.

Results

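The col genes are the numbered collagen genes of the nematode Caenorhabditis elegans. The genes described here were all col genes with a mean expression value of at least 3 over the 24 libraries of the study, 111 of the 153 col genes in the deposited table, and 14482 genes of any kind passed the same minimum. Most col genes encode cuticle collagens, proteins built of glycine-rich triplet repeats that the epidermis secretes, crosslinks and assembles into the worm's exoskeleton. A new cuticle is made before each molt, different collagens are used at different stages, and collagen transcription is pulsed around each molt. Some col genes mark the adult cuticle and some the cuticle of the dauer, the arrested larva made under poor conditions. Overexpression of a few of them extends the life of adult worms.

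RNA was sequenced from whole animals collected as young adults when adulthood began, grown at 20 °C on OP-50-1 bacteria, with 4 libraries of each of 6 genotypes. Mutants carried the alleles mu86 of daf-16, e1370 of daf-2 and bon101 of htz-1. The genotypes were all 3 alleles together (daf-16;daf-2;htz-1, called the triple mutant), daf-2;htz-1 (also called the htz-1 double mutant), htz-1, daf-16;daf-2, daf-2, and wild type, the strain N2 (wt). The receptor for insulin-like signals is DAF-2, and e1370 lowers its function. Its signal holds back DAF-16, a FOXO transcription factor, and mu86 is a deletion. H2A.Z, a variant of histone H2A found in some nucleosomes, is the product of htz-1. The sources used here do not give what bon101 changes. The alleles are present in all tissues, and 1 allele stands for each gene. Libraries were labelled with 4 batches, each batch with 1 library per genotype, and the library number below is the batch number. In whole animals, fewer cells of a type and less RNA per cell cannot be told apart.

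The values are regularized log2 values (rlog), in which differences of genes with few reads are shrunk, and read numbers are unknown. Differences below are in these log2 units, with the standard error (SE) of a limma fit to all 24 libraries and a p adjusted over the 14482 genes by the Benjamini-Hochberg method. A gene is said to have risen or fallen where the adjusted p was under 0.05. The htz-1 transcript averaged 11.43 ± 0.22 in the triple mutant, 11.33 ± 0.03 in daf-2;htz-1 and 11.37 ± 0.13 in htz-1, against 10.81 ± 0.13 in daf-16;daf-2, 11 ± 0.29 in daf-2 and 10.91 ± 0.32 in wt (SD, n = 4 each), so its amount does not check the labels. The daf-16 transcript averaged 9.32 ± 0.57 in the triple mutant and 9.87 ± 0.13 in daf-16;daf-2, the genotypes with mu86, against 10.17 ± 0.17 in daf-2;htz-1, 9.91 ± 0.24 in htz-1, 10.32 ± 0.11 in daf-2 and 10.74 ± 0.35 in wt (SD, n = 4 each). Correlations across genes were 0.980 to 0.996 between libraries of 1 genotype and 0.927 to 0.994 between genotypes. Libraries daf-2 1 and wt 1 had the lowest median over the col genes of their genotypes, and library 3 of the triple mutant the highest of its own. For genes named by the rule given under processing, a call given below that is lost without one of them is marked beside it. Calls of other genes are not all marked. All 11 muscle and 11 neuron markers passed the minimum. Of 13 intestine markers 12 were in the deposited table, and all of these passed.

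Per length, the most abundant members were col-124, col-80, col-140, col-119 and col-179, at 17.33, 17.15, 16.97, 16.52 and 16.46 (mean rlog minus log2 of the exon length in kilobases). The members just above the minimum were col-17, col-40 and col-58 with means of 3.14, 3.21 and 3.21, and just below it lay col-173, col-128 and col-33 with 2.87, 2.79 and 2.78. In 83 members the mean was at least 3 in every genotype, while 28 were below 3 in 1 to 3 genotypes and passed through the others. Among these, 13 lay below 3 in all 3 genotypes with the htz-1 allele and at or above 3 in all 3 without it, and 1, col-121, showed the opposite. A difference of such a member between genotypes below and above 3 may be partly a condition of its being tested. It is a description only. The libraries do not mark the strand of a transcript, and 36 members lie across a protein-coding gene on the opposite strand, 20 of them with shared exon bases, and 4 overlap a gene on the same strand. Values of these members are uncertain, and the partner is named where it matters. Near-identical collagen copies may share reads, and their identity was not computed. The dauer cuticle gene col-2, with a mean of 1.67, and col-99, which encodes a transmembrane collagen and had a mean of 1.12, were below the minimum and were not tested.

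The family as a whole stood lower in every genotype with the htz-1 allele. The median over the 111 members was 5.45, 5.99, 7.30 and 5.55 in the triple mutant, 5.63, 6.03, 5.09 and 6.20 in daf-2;htz-1, and 5.88, 6.06, 5.62 and 5.83 in htz-1. It was 10.17, 10.05, 10.65 and 9.67 in daf-16;daf-2, 8.02, 9.45, 9.24 and 9.45 in daf-2, and 8.30, 10.44, 10.37 and 9.77 in wt. All 12 libraries with the allele thus lay below all 12 without it. Group means were 6.07 ± 0.85 in the triple mutant, 5.74 ± 0.49 in the htz-1 double mutant and 5.85 ± 0.18 in htz-1, against 10.1 ± 0.41 in daf-16;daf-2, 9.04 ± 0.69 in daf-2 and 9.72 ± 0.99 in wt (SD, n = 4 each). Over all 153 col genes the separation of the libraries was not complete. There library 3 of the triple mutant had a median of 5.83, above daf-2 1 (5.75) and wt 1 (4.92). The summed level of the members (log2 of the summed linear values), which rests on the most abundant ones, showed a smaller gap. It ran from 19.54 to 20.32 in the triple mutant, 19.98 to 20.57 in daf-2;htz-1 and 19.09 to 20.16 in htz-1, against 20.68 to 21.67 in daf-16;daf-2, 20.99 to 22.29 in daf-2 and 20.88 to 22.22 in wt. Over all tested genes the median of a library stayed between 7.42 and 7.81. The number of col genes that varied among the 6 genotypes at all was 101 of 111 by limma's F test (91.0%, against 69.6% of all tested genes).

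**Figure D1:**
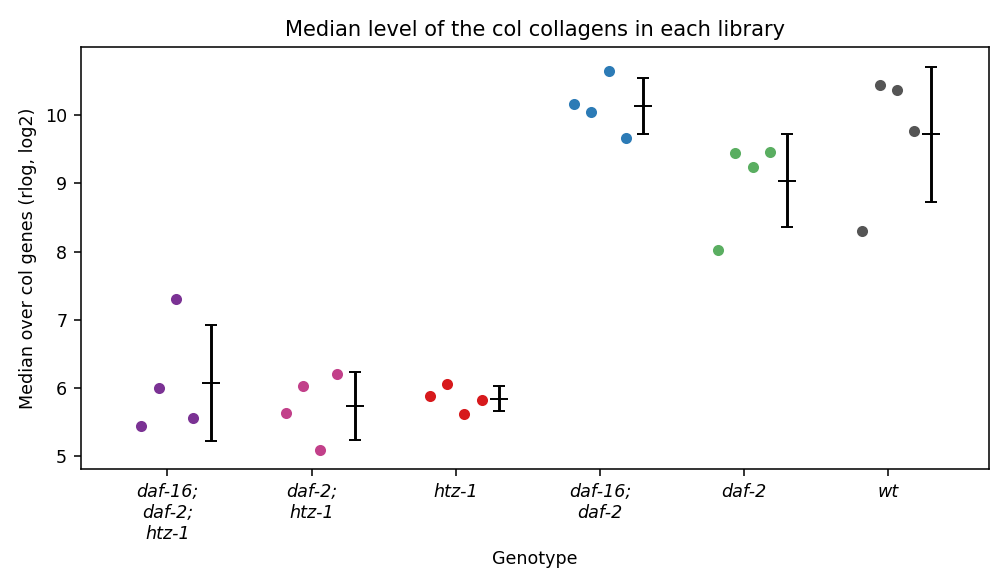
Median rlog value over the 111 col genes in each library, by genotype, with points for single libraries and a bar for the mean ± SD of 4. The 12 libraries with the htz-1 allele lie between 5.09 and 7.30, and the 12 without it between 8.02 and 10.65.

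The htz-1 allele was compared with its absence in 3 backgrounds, which share no library. In htz-1 against wt, 78 col genes fell and 11 rose, where 24.5% of all tested genes fell and 26.4% rose. In daf-2;htz-1 against daf-2, 78 fell and 7 rose, where 20.1% of all genes fell and 20.4% rose. In the triple mutant against daf-16;daf-2, 72 fell and 12 rose, where 24.3% of all genes fell and 24.1% rose. The median difference over the members was -2.39 in htz-1, -2.51 in the htz-1 double mutant and -2.14 in the triple mutant, against 0.03, 0.04 and 0.03 over all tested genes. Falls of at least 4 log2 units were seen in the same order in 38, 33 and 36 members (34.2%, 29.7% and 32.4%), a size that 1.52%, 0.345% and 3.82% of all tested genes reached. In 65, 74 and 61 members (58.6%, 66.7% and 55.0%) the fall came with groups that did not overlap, as in 20.3%, 15.7% and 20.4% of all tested genes. With no filter on low values, and so with the 42 col genes below the minimum included, 78, 80 and 73 of 153 fell and 19, 14 and 18 rose, with median differences over the 153 of -1.002, -1.07 and -0.89. Among the col genes below the minimum, 8, 7 and 7 rose and 1, 3 and 1 fell, so their calls went mostly the other way. Shares over all genes without the filter are not given here.

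In all 3 backgrounds 68 col genes fell (61.3% of the members, against 13.5% of all tested genes), which are 87.2% of those that fell in htz-1, 87.2% of those in daf-2;htz-1 and 94.4% of those in the triple mutant. Only col-158, col-53, col-74, col-76 and col-95 rose in all 3 (4.50%, against 10.1% of all tested genes). The gene col-43 fell in daf-2;htz-1 and rose in htz-1 and the triple mutant. The limma test called 13 members in none of the 3 comparisons: col-8, col-45, col-48, col-71, col-85, col-106, col-113, col-119, col-122, col-132, col-176, col-181 and col-184. Of these, col-85 and col-119 are in the rule for named genes and the others were named for this absence.

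**Figure D2:**
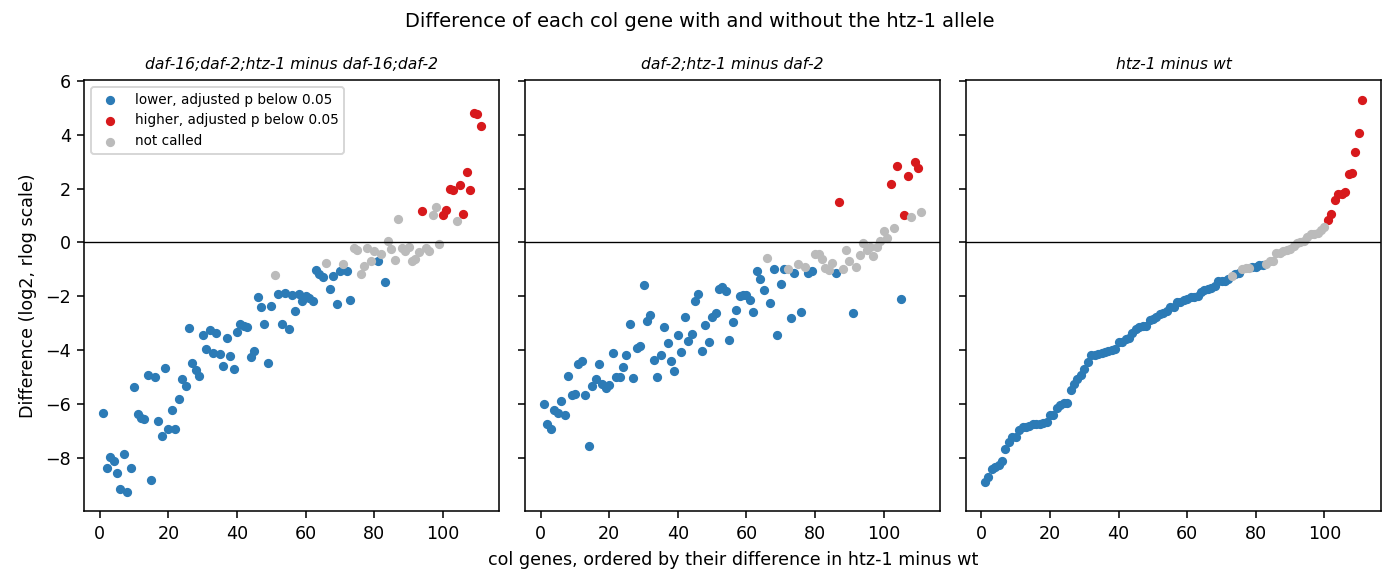
Difference of each of the 111 col genes, in log2 units, in the triple mutant against daf-16;daf-2, daf-2;htz-1 against daf-2, and htz-1 against wt, with the genes in the same order in each panel. Blue points fell, red points rose and grey points did not pass the limma test. The largest falls reach -9.26, -7.58 and -8.89.

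Among the deepest falls were col-12 and col-13, a nearly identical tandem pair on chromosome V (10423898 to 10425198 and 10420788 to 10421902, minus strand, WBcel235). Values of col-12 were 4.29, 5.47, 7.26 and 4.85 in the triple mutant, 5.83, 6.23, 5.98 and 7.35 in the htz-1 double mutant, and 5.11, 5.01, 4.40 and 4.17 in htz-1. Without the allele they were 13.26, 13.50, 14.30 and 13.30 in daf-16;daf-2, 10.54, 13.11, 13.43 and 13.19 in daf-2, and 11.53, 13.66, 13.44 and 13.43 in wt. All 12 values with the allele lay below all 12 without it, and the lowest value without the allele, in daf-2 1, was still over 3 units above the highest with it. The gene fell by 8.12 ± 0.59 (SE, adjusted p = 5.53e-11) in the triple mutant, fell by 6.22 ± 0.59 (SE, adjusted p = 1.9e-08) in daf-2;htz-1 and fell by 8.34 ± 0.59 (SE, adjusted p = 6.04e-11) in htz-1. Its partner col-13, which extends lifespan when overexpressed, fell by 6.93 ± 0.51 (SE, adjusted p = 8.14e-11), fell by 5.28 ± 0.51 (SE, adjusted p = 3.13e-08) and fell by 6.41 ± 0.51 (SE, adjusted p = 4.21e-10) in the same comparisons. How reads were divided between these copies is not known, so the values of each are uncertain.

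The adult cuticle collagen col-7 lies 529 bases from col-62 on chromosome I (7401132 to 7402761, plus strand, and 7403291 to 7404374, minus strand), and both fell steeply. Values of col-7 were 5.14, 5.08, 5.04 and 4.50 in the triple mutant, 6.50, 5.90, 5.35 and 6.79 in the htz-1 double mutant, and 5.57, 5.17, 4.79 and 4.16 in htz-1. In the genotypes without the allele they were 13.71, 14.32, 14.73 and 13.62 in daf-16;daf-2, 9.93, 12.69, 12.80 and 12.71 in daf-2, and 11.06, 13.93, 13.79 and 13.40 in wt. The groups did not overlap, and the lowest values without the allele were those of daf-2 1 and wt 1. The gene fell by 9.15 ± 0.56 (SE, adjusted p = 8.08e-12) in the triple mutant, fell by 5.90 ± 0.56 (SE, adjusted p = 1.98e-08) in daf-2;htz-1 and fell by 8.12 ± 0.56 (SE, adjusted p = 4.27e-11) in htz-1. For col-62 the values were 5.45, 5.01, 6.16 and 5.05 in the triple mutant, 8.32, 8.39, 7.43 and 8.59 in the htz-1 double mutant, and 6.24, 6.28, 6.54 and 5.69 in htz-1, against 14.14, 14.89, 15.41 and 14.26 in daf-16;daf-2, 11, 13.78, 13.90 and 13.83 in daf-2, and 11.55, 14.48, 14.17 and 14.13 in wt. All 12 values with the allele were lower than the 12 without it. The fall of col-62 was 9.26 ± 0.56 in the triple mutant, the largest of any member in that comparison (adjusted p = 7.19e-12), and it fell by 4.95 ± 0.56 (SE, adjusted p = 2.29e-07) in daf-2;htz-1 and fell by 7.39 ± 0.56 (SE, adjusted p = 1.67e-10) in htz-1.

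The deepest fall in htz-1 against wt was that of col-167 on chromosome X (6323488 to 6324393, plus strand). Its values were 6.10, 6.74, 11.08 and 6.78 in the triple mutant, 5.40, 6.76, 4.63 and 6.46 in the htz-1 double mutant, and 5.85, 4.41, 4.60 and 4.35 in htz-1, against 14.35, 13.68, 14.55 and 13.52 in daf-16;daf-2, 10.27, 12.34, 12.30 and 12.41 in daf-2, and 12.67, 13.86, 14.68 and 13.58 in wt. Library 3 of the triple mutant, at 11.08, stood far above the other 3 of its genotype and overlapped none of the daf-16;daf-2 libraries. The gene fell by 6.35 ± 0.74 (SE, adjusted p = 9.32e-08) in the triple mutant, fell by 6.02 ± 0.74 (SE, adjusted p = 8.3e-07) in daf-2;htz-1 and fell by 8.89 ± 0.74 (SE, adjusted p = 6.96e-10) in htz-1. It heads a run of neighbouring col genes in which col-168, col-169 and col-170 differed by -6.76, -4.46 and -6.03 in htz-1 against wt, all called. In the triple mutant, daf-2;htz-1 and htz-1, col-169 averaged 2.64, 1.695 and 2.09 and col-170 averaged 3.21, 1.995 and 2.19. Both passed the minimum through the genotypes without the allele, so their falls are descriptions. The other members with the largest falls in htz-1 were col-147 (-8.70), col-133 (-8.41), col-146 (-8.28) and col-161 (-7.67). For col-147, 228 of 1178 exon bases are shared with T06E4.5 on the opposite strand, which averaged 1.93 in htz-1 and 4.36 in wt, so its values are uncertain. In daf-2;htz-1 the largest falls were those of col-117 (-7.58), col-133 (-6.94), col-147 (-6.74) and col-161 (-6.43). In the triple mutant they were those of col-62, col-7, col-126 (-8.84) and col-146 (-8.56).

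Among the 5 members most abundant per length, differences in htz-1 against wt lay between -3.13 and -0.69, and not all passed the test. The adult cuticle collagen col-19 (chromosome X, 421707 to 422691, plus strand), a standard marker of the adult epidermis, had 14.11, 14.82, 14.09 and 14.59 in the triple mutant, 14.61, 14.81, 14.28 and 14.62 in the htz-1 double mutant, and 13.85, 14.70, 14.52 and 13.62 in htz-1. Its values without the allele were 16.36, 15.43, 15.70 and 15.22 in daf-16;daf-2, 15.73, 16.20, 17.32 and 16.10 in daf-2, and 15.95, 15.63, 16.71 and 15.45 in wt. All 12 values with the allele lay below all 12 without it, by small margins. The gene fell by 1.27 ± 0.34 (SE, adjusted p = 0.00281) in the triple mutant, fell by 1.76 ± 0.34 (SE, adjusted p = 0.000187) in daf-2;htz-1 and fell by 1.76 ± 0.34 (SE, adjusted p = 9.72e-05) in htz-1. The most abundant member, col-124 (chromosome IV, 10216451 to 10217617, plus strand), had 15.90, 16.89, 16.05 and 16.48 in the triple mutant, 16.86, 17.29, 16.74 and 17.11 in the htz-1 double mutant, and 15.30, 16.17, 15.93 and 14.91 in htz-1. Without the allele it had 19.003, 18.23, 18.34 and 17.91 in daf-16;daf-2, 18.47, 18.76, 19.73 and 18.76 in daf-2, and 18.70, 18.44, 19.58 and 18.12 in wt, and the sets of 12 did not overlap. It fell by 2.04 ± 0.39 (SE, adjusted p = 0.000106), fell by 1.93 ± 0.39 (SE, adjusted p = 0.000338) and fell by 3.13 ± 0.39 (SE, adjusted p = 3.02e-07) in the triple mutant, daf-2;htz-1 and htz-1. In col-124, 71 of its 1117 exon bases are shared with qns-1 on the opposite strand.

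Of the other 4 most abundant collagens, col-179 (chromosome X, 11201465 to 11202485) fell in all 3 backgrounds, by 1.26, 0.98 and 1.60. The gene col-80 (chromosome II, 10707201 to 10708287) fell by 1.72 ± 0.38 (SE, adjusted p = 0.000548) in htz-1 against wt. Its difference was -0.78 ± 0.38 (SE, adjusted p = 0.0943) in the triple mutant and -0.58 ± 0.38 (SE, adjusted p = 0.234) in daf-2;htz-1, and neither was called. For col-140 (chromosome V, 5835855 to 5836834) the differences were -1.18 ± 0.44 (SE, adjusted p = 0.0276) in htz-1 and -1.15 ± 0.44 (SE, adjusted p = 0.0401) in daf-2;htz-1, which were called, and -0.20 ± 0.44 (SE, adjusted p = 0.73) in the triple mutant, which was not. Both calls of col-140 were lost in some settings. Values of col-119 (chromosome IV, 8978926 to 8979795, minus strand) were 15.88, 16.72, 15.52 and 16.25 in the triple mutant, 16.04, 16.32, 15.69 and 16.06 in the htz-1 double mutant, and 15.69, 16.57, 16.18 and 15.52 in htz-1, against 17.26, 15.69, 15.78 and 15.46 in daf-16;daf-2, 16.29, 17.14, 18.59 and 16.22 in daf-2, and 16.84, 16.33, 17.84 and 15.71 in wt. Here the genotypes overlapped throughout, and col-119 passed neither the F test over the 6 genotypes (adjusted p = 0.209) nor any pairwise test, although some alternatives gave a fall. In daf-16;daf-2 against daf-2 it fell after quantile normalization (adjusted p = 0.0153) and without library 1 of daf-16;daf-2 (adjusted p = 0.0367), and in daf-2;htz-1 against daf-2 it fell without library 4 of daf-2 (adjusted p = 0.0482). Its difference was -0.69 ± 0.49 (SE, adjusted p = 0.243) in htz-1 against wt.

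A large fall was not limited to genes of low level. The abundant collagen col-129 (chromosome IV, 12108734 to 12110439, minus strand) had 11.18, 11.76, 10.62 and 11.69 in the triple mutant, 12.61, 13.11, 12.30 and 13.22 in the htz-1 double mutant, and 10.71, 11.13, 11.07 and 10.27 in htz-1, against 17.96, 17.54, 17.94 and 17.32 in daf-16;daf-2, 16.31, 17.35, 17.87 and 17.82 in daf-2, and 17.34, 17.61, 18.52 and 17.51 in wt. The genotypes with the allele were apart from those without it by over 3 units. The gene fell by 6.38 ± 0.33 (SE, adjusted p = 9.24e-13) in the triple mutant, fell by 4.53 ± 0.33 (SE, adjusted p = 4.83e-10) in daf-2;htz-1 and fell by 6.95 ± 0.33 (SE, adjusted p = 2.65e-13) in htz-1. When the members were grouped by their mean level, the median difference in htz-1 against wt was -2.03 for the 41 members with a mean of 3 to 6, -4.12 for the 26 from 6 to 9, -6.32 for the 18 from 9 to 12 and -1.30 for the 26 above 12. The numbers that fell were 24, 19, 17 and 18. The mean level takes in the libraries with the allele, so a fall lowers the class of its own gene. Differences of genes with low values are also shrunk in these units, so the order of the medians is a description only. Falls were spread over all chromosomes, and in htz-1 against wt 6 of 11 members on chromosome I fell, 9 of 15 on II, 9 of 12 on III, 21 of 32 on IV, 23 of 26 on V and 10 of 15 on X.

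**Figure D3:**
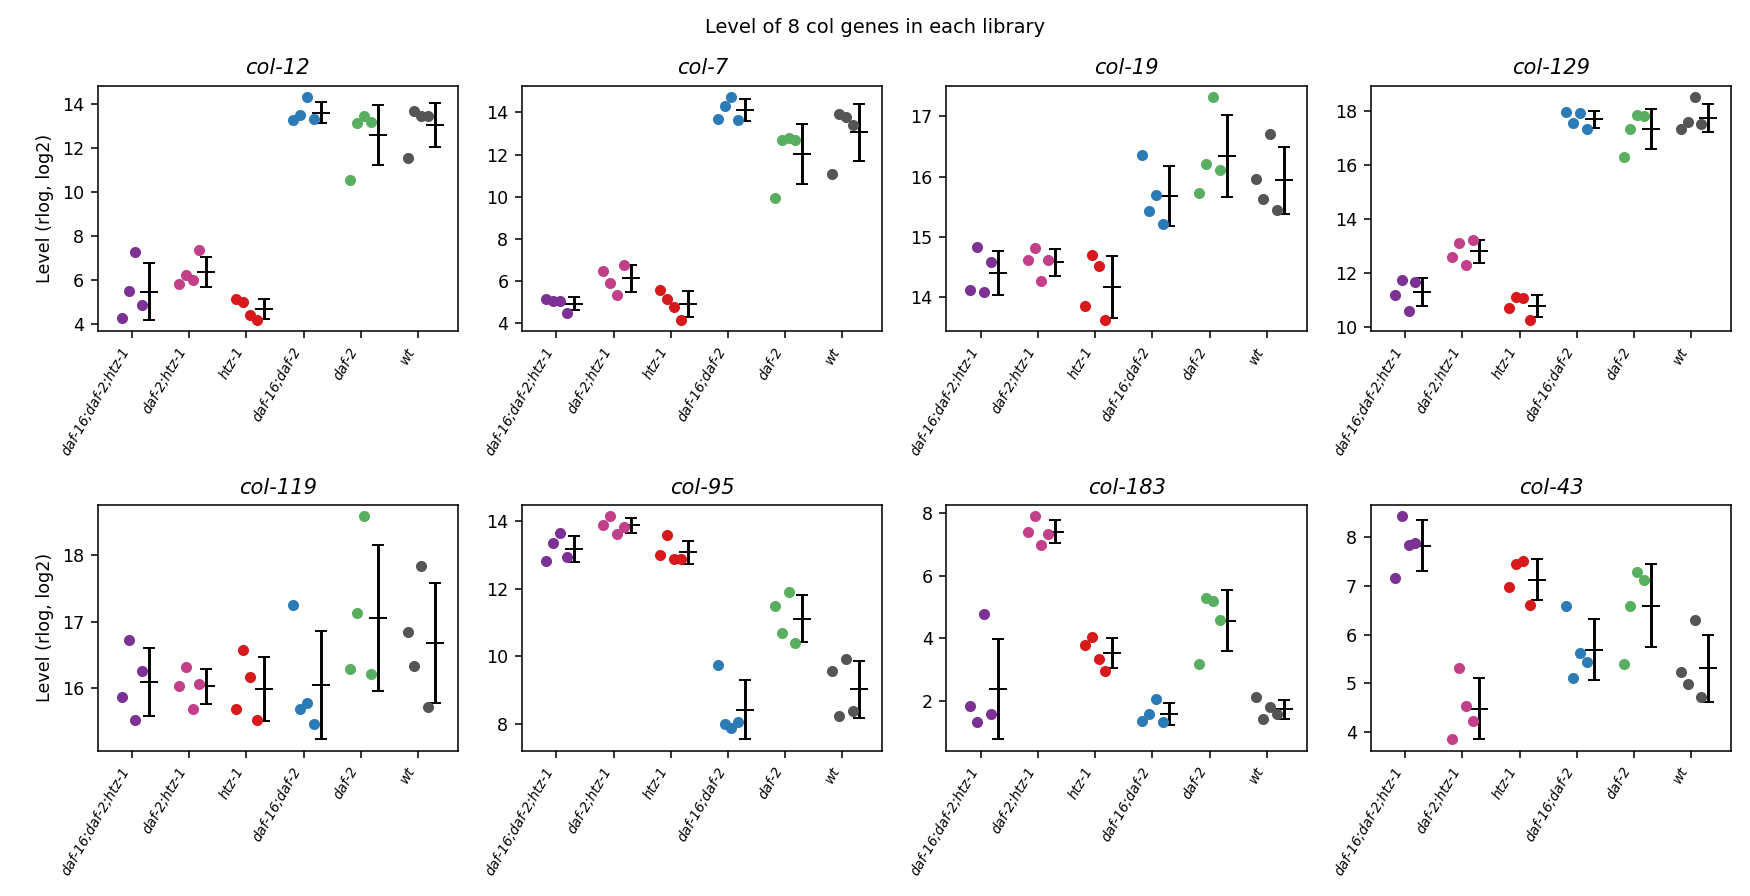
The rlog value of col-12, col-7, col-19, col-129, col-119, col-95, col-183 and col-43 in each of the 24 libraries, by genotype, with points for libraries and a bar for the mean of 4. In col-12, col-7, col-19 and col-129 the libraries with the htz-1 allele lie below all others, in col-95 they lie above, and in col-119 the genotypes overlap.

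A small set of col genes rose with the htz-1 allele. The clearest was col-95 (chromosome III, 11703994 to 11705091, plus strand), whose values were 12.82, 13.34, 13.65 and 12.93 in the triple mutant, 13.89, 14.14, 13.63 and 13.84 in the htz-1 double mutant, and 12.99, 13.58, 12.87 and 12.87 in htz-1. Without the allele they were 9.74, 7.99, 7.89 and 8.07 in daf-16;daf-2, 11.49, 10.69, 11.92 and 10.39 in daf-2, and 9.57, 8.23, 9.91 and 8.39 in wt. No value with the allele was as low as any without it, and daf-2 was the highest of the 3 genotypes without it. The gene rose by 4.76 ± 0.39 (SE, adjusted p = 2.8e-10) in the triple mutant, rose by 2.76 ± 0.39 (SE, adjusted p = 5.04e-06) in daf-2;htz-1 and rose by 4.05 ± 0.39 (SE, adjusted p = 5.41e-09) in htz-1. Its neighbour col-96, 560 bases away, differed by -2.39 in htz-1 against wt, a fall by the same test. In 19 of the 21 pairs of members that are adjacent among protein-coding genes both genes fell in this comparison, in which 70.3% of all members fell, and whether neighbours fell together more often than other members was not tested.

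Another rise was that of col-158 (chromosome V, 11829582 to 11831219), which had 8.44, 8.81, 9.36 and 8.15 in the triple mutant, 8.78, 9.40, 8.70 and 8.16 in the htz-1 double mutant, and 7.98, 9.06, 8.88 and 7.88 in htz-1, against 6.96, 5.88, 5.80 and 5.62 in daf-16;daf-2, 7.53, 5.43, 6.41 and 5.84 in daf-2, and 6.49, 5.71, 6.59 and 4.86 in wt. All 12 values with the allele lay above all 12 without it. It rose by 2.63 ± 0.43 (SE, adjusted p = 1.57e-05), rose by 2.45 ± 0.43 (SE, adjusted p = 7.7e-05) and rose by 2.54 ± 0.43 (SE, adjusted p = 2.48e-05) in the triple mutant, daf-2;htz-1 and htz-1. The gene shares 23 exon bases with nphp-4 on the opposite strand, which averaged 5.32 in the triple mutant, 4.14 in daf-2;htz-1 and 6.19 in htz-1, against 3.59, 3.38 and 3.38 in daf-16;daf-2, daf-2 and wt. Values of col-76 (chromosome II, 8204339 to 8207495) ran from 8.17 to 9.29 with the allele and from 6.99 to 7.87 without it, and it rose by 1.05, 1.01 and 1.86. The low member col-53 rose by 1.98, 2.15 and 1.06. For col-74 (chromosome II, 5830374 to 5832022) the values were 7.74, 6.47, 10.04 and 5.88 in the triple mutant, 5.22, 7.82, 3.83 and 2.76 in the htz-1 double mutant, and 6.58, 6.23, 4.53 and 8.30 in htz-1, against 2.46, 2.21, 3.10 and 3.07 in daf-16;daf-2, 2.80, 1.39, 1.57 and 1.84 in daf-2, and 3.12, 1.67, 3.41 and 3.96 in wt. Its libraries with the allele spread widely, and in daf-2;htz-1 and daf-2 the groups overlapped. It rose by 4.82 ± 0.89 (SE, adjusted p = 6.65e-05), rose by 3.005 ± 0.89 (SE, adjusted p = 0.00869) and rose by 3.37 ± 0.89 (SE, adjusted p = 0.00259). The gene passed the minimum only through the genotypes with the allele, so these rises are descriptions. It shares 144 exon bases with gtap-1 on the opposite strand, whose means lay between 10.68 and 10.95 in all 6 genotypes.

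The genes col-101, col-111, col-116, col-121 and col-43 rose in htz-1 and the triple mutant and were not called higher in daf-2;htz-1. The gene col-121 (chromosome IV, 9394873 to 9396218, minus strand) had 6.92, 5.33, 8.25 and 6.16 in the triple mutant, 4.50, 4.09, 1.83 and 1.86 in the htz-1 double mutant, and 7.68, 8.20, 8.22 and 7.61 in htz-1, against 1.53, 3.26, 2.24 and 2.33 in daf-16;daf-2, 2.90, 1.32, 1.49 and 2.10 in daf-2, and 1.61, 3.30, 3.47 and 2.13 in wt. The libraries of htz-1 and the triple mutant were apart from the others, and those of daf-2;htz-1 overlapped daf-2. It rose by 4.32 ± 0.61 (SE, adjusted p = 1.96e-06) in the triple mutant and rose by 5.30 ± 0.61 (SE, adjusted p = 1.03e-07) in htz-1, while the difference was 1.12 ± 0.61 (SE, adjusted p = 0.15) in daf-2;htz-1. Its means were 2.34, 1.95 and 2.63 in daf-16;daf-2, daf-2 and wt. The gene thus passed the minimum through genotypes with the allele, and its rises are descriptions. It shares 107 exon bases with daf-15, whose means lay between 11.39 and 11.80. Values of col-43 (chromosome V, 8049703 to 8050911, minus strand) were 7.16, 8.42, 7.83 and 7.86 in the triple mutant, 3.86, 5.32, 4.54 and 4.24 in the htz-1 double mutant, and 6.97, 7.44, 7.50 and 6.60 in htz-1, against 6.58, 5.12, 5.62 and 5.44 in daf-16;daf-2, 5.39, 6.58, 7.27 and 7.11 in daf-2, and 5.24, 4.99, 6.29 and 4.72 in wt. In each of the 3 pairs the groups did not overlap. It rose by 2.13 ± 0.42 (SE, adjusted p = 0.000151) in the triple mutant, fell by 2.10 ± 0.42 (SE, adjusted p = 0.000294) in daf-2;htz-1 and rose by 1.81 ± 0.42 (SE, adjusted p = 0.000785) in htz-1.

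Markers of other cells and stages moved in the same comparisons, and their part in these results was not tested. All 18 sperm genes fell in each of the 3 comparisons. Their summed level (log2 of the summed linear values) ran from 12.4 to 14.1 in the triple mutant, 14.1 to 14.4 in daf-2;htz-1 and 13.4 to 13.9 in htz-1, against 17.2 to 18.2 in daf-16;daf-2, 15.2 to 17.3 in daf-2 and 17.2 to 17.9 in wt. Of 6 tested embryo genes, 4 rose in the triple mutant, 3 in daf-2;htz-1 and 4 in htz-1, and none fell. The summed level of the 13 embryo genes ran from 12.2 to 13.5 in the triple mutant, 10.2 to 10.6 in daf-2;htz-1 and 13 to 13.8 in htz-1, against 8.47 to 9.32 in daf-16;daf-2, 9.36 to 10.2 in daf-2 and 8.28 to 9.01 in wt. The embryonic markers hlh-27 and med-1 had means below 1 in all 6 genotypes. Of 13 oocyte and eggshell genes, 5 rose in the triple mutant, 1 fell in daf-2;htz-1 and 3 rose in htz-1. Of 12 intestine genes 4 rose and 5 fell in the triple mutant, 1 rose and 4 fell in daf-2;htz-1, and 6 fell in htz-1. Of 11 muscle genes 3 fell in the triple mutant, 2 rose in daf-2;htz-1, and 1 rose and 3 fell in htz-1. Of 11 neuron genes 2 rose and 1 fell in the triple mutant, 6 rose in daf-2;htz-1 and 2 rose in htz-1. Over all tested genes 24.1% rose and 24.3% fell in the triple mutant, 20.4% and 20.1% in daf-2;htz-1, and 26.4% and 24.5% in htz-1. Several of the smaller marker counts were near these shares.

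The insulin receptor allele alone moved 16 of the 111 col genes. In daf-2 against wt 10 rose and 6 fell, where 6.43% of all tested genes rose and 5.95% fell, so that the share of members called, 14.4%, was near the 12.4% of all genes. The median difference over the members was 0.07. The rises were led by col-183 (chromosome X, 13466643 to 13467764, minus strand), a gene whose reporter is used to mark commitment to the dauer stage. It had 3.19, 5.29, 5.20 and 4.60 in daf-2 and 2.12, 1.41, 1.82 and 1.58 in wt, and the groups did not overlap. The difference was 2.83 ± 0.54 (SE, adjusted p = 0.000729). The next were col-116 (2.70), col-85 (2.40) and col-95 (2.09), then col-101, col-98, col-43 and col-103 with 1.35, 1.30, 1.28 and 1.25. The mean of col-85, 3.262, reaches the minimum only with the daf-2 libraries counted, so its rise is a description. For col-116 (chromosome IV, 8355906 to 8357919), 508 of its 1877 exon bases are shared with F17E9.2 on the same strand, which averaged 3.77 in daf-2 and 2.32 in wt, so its value is uncertain.

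The falls in daf-2 were those of col-168 (-2.50), col-149 (-2.15), col-169 (-1.92), col-125 (-1.79), col-180 (-1.45) and col-144 (-1.30). The fall of col-169 was lost without daf-2 1 (-1.55, adjusted p = 0.171), without wt 1 (-1.97, adjusted p = 0.0599) and without 5 of the other 6 single libraries. Values of col-168 were 5.75, 7.999, 8.58 and 8.01 in daf-2 and 9.31, 10.03, 11.07 and 9.91 in wt, and the groups were apart. These counts turn on single libraries. Without daf-2 1 there were 2 falls, those of col-168 and col-149, so the calls of col-125, col-180 and col-144 were lost there too. Without wt 2 there were 6 rises and 3 falls, without wt 3 there were 3 falls, and without daf-2 3 there were 6 rises. Fitted to the libraries of daf-2 and wt alone, 4 genes rose.

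The daf-16 deletion was tested in the daf-2 background. In daf-16;daf-2 against daf-2, 18 col genes rose and 10 fell, where 16% of all tested genes rose and 9.65% fell, and the share of members called was 25.2% against 25.7% of all genes. After quantile normalization 15 rose and 20 fell, and after centring each library 17 rose and 12 fell. The rises were led by col-126 (2.98), col-168 (2.88), col-127 (2.73), col-149 (2.47), col-180 (2.38), col-167 (2.196) and col-125 (2.08), followed by the adult collagen col-7 (2.06). Values of col-126 (chromosome IV, 11263401 to 11264397) were 11.58, 11.86, 12.87 and 11.38 in daf-16;daf-2 and 7.01, 9.29, 9.23 and 10.25 in daf-2, and the groups were apart. Its neighbour col-127, 510 bases away, had 10.50, 10.78, 11.31 and 10.34 in daf-16;daf-2 and 5.81, 8.60, 8.87 and 8.70 in daf-2. In both genes daf-2 1 was the lowest library. Without daf-2 1, 6 col genes rose, and without library 3 of daf-16;daf-2, 7 rose. With daf-2 1 and wt 1 left out together, an alternative chosen after seeing the data, 10 rose. The rise of col-7 was lost without daf-2 1, at a difference of 1.36 (adjusted p = 0.0567). That of col-167 was 1.68 without daf-2 1 (adjusted p = 0.139), and it was also lost without library 1 or 3 of daf-16;daf-2 (adjusted p = 0.0619 and 0.0883). With the batch as a replicate block col-13 also rose, by 1.31 (adjusted p = 0.0437, against 0.0636 without the block).

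The falls in daf-16;daf-2 were led by col-116 (-3.33), col-183 (-2.98), col-85 (-2.77) and col-95 (-2.69). That of col-85 is a description, as the gene reaches the minimum only with the daf-2 libraries counted. For col-183 the values were 1.37, 1.58, 2.07 and 1.32 in daf-16;daf-2 and 3.19, 5.29, 5.20 and 4.60 in daf-2, with no overlap. The difference was -2.98 ± 0.54 (SE, adjusted p = 0.00027). Values of col-98 (chromosome III, 13019008 to 13020226) were 16.62, 15.75, 15.41 and 15.32 in daf-16;daf-2 and 17.48, 17.13, 17.96 and 17.51 in daf-2, and it fell by 1.74 ± 0.32 (SE, adjusted p = 0.000354). The other falls among named genes were those of col-103 (-1.84), col-101 (-1.68), col-42 (-1.60) and the dauer cuticle gene col-40 (-1.44), the last of which was lost without library 3 of daf-2 (adjusted p = 0.0556). This comparison shares the daf-2 libraries with that of daf-2 and wt, so opposite signs in them are no independent evidence. Markers of several tissues moved beside these values, and their part was not tested. In daf-16;daf-2 against daf-2, 7 of 11 muscle, 5 of 12 intestine and 8 of 18 sperm genes rose and 4 of 13 oocyte and eggshell genes fell. In daf-2 against wt, 5 of 11 muscle, 4 of 12 intestine and 4 of 18 sperm genes fell. Over all tested genes 16% rose and 9.65% fell in the first of these comparisons, and 5.95% fell in the second.

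With the htz-1 allele present, the same pair of questions was asked in libraries that do not overlap with those above. In the triple mutant against daf-2;htz-1, 16 col genes rose and 12 fell, where 12.8% of all tested genes rose and 17.4% fell. After quantile normalization 18 rose and 16 fell. Without library 3 of the triple mutant 8 rose, and without library 3 of daf-2;htz-1 also 8. In both daf-16 comparisons 6 genes rose, col-123, col-125, col-144, col-149, col-168 and col-180, which are 33.3% of the 18 without the htz-1 allele and 37.5% of the 16 with it. The rises of col-123 and col-144 in daf-16;daf-2 against daf-2 were lost without daf-2 1, so these shares turn on that library. Of all tested genes 3.52% rose in both, which are 22% of those that rose without the allele and 27.5% of those that rose with it. Another 6 fell in both, col-40, col-42, col-98, col-103, col-116 and col-183, 60% of the 10 and 50% of the 12, against 37.4% and 20.7% over all tested genes, of which 3.60% fell in both. The difference between these shares was not tested, and col-40 and col-183 reach the minimum only with the daf-2;htz-1 libraries counted. In the triple mutant against daf-2;htz-1, 7 of 12 intestine genes rose and 1 fell, 7 of 10 precuticle and cuticlin genes rose, 3 of 6 embryo genes rose and 1 fell, 4 of 13 oocyte and eggshell genes rose, and 6 of 18 sperm and 3 of 11 neuron genes fell. Also, 4 of 5 furrow collagens rose, and 4 of 14 body-shape and strut collagens rose and 1 fell. Of 10 molting genes 4 rose and 1 fell, and of 3 basement membrane collagens 2 rose. Of 9 epidermal and molting-cycle transcription factors 3 rose, and of 13 collagen-modifying enzymes 3 rose and 3 fell. Their part in the collagen values was not tested.

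The largest fall with the htz-1 allele was that of col-183, with 1.83, 1.34, 4.77 and 1.59 in the triple mutant and 7.41, 7.90, 6.99 and 7.34 in the htz-1 double mutant. Library 3 of the triple mutant lay above the other 3 and below all of daf-2;htz-1. The gene reaches the minimum only with the daf-2;htz-1 libraries counted, so its fall here is a description. The difference was -5.03 ± 0.54 (SE, adjusted p = 2.06e-07). It was followed by col-62 (-2.76), col-116 (-2.32) and col-142 (-2.14). The rises were led by col-117 (4.11), col-121 (3.59), col-43 (3.33) and col-168 (2.94). That of col-121 is a description, as the gene passed the minimum through htz-1 and the triple mutant. Values of col-149 (chromosome V, 10291701 to 10292869) were 6.36, 7.26, 7.53 and 6.87 in the triple mutant and 3.64, 4.19, 4.08 and 5.15 in the htz-1 double mutant, apart in every library. The same gene had 12.37, 12.16, 12.64 and 12.27 in daf-16;daf-2 and 8.02, 10.35, 10.24 and 10.94 in daf-2, so that both pairs were ordered alike at very different levels. It rose by 2.74 ± 0.48 (SE, adjusted p = 0.000112) and rose by 2.47 ± 0.48 (SE, adjusted p = 0.000555).

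**Figure D4:**
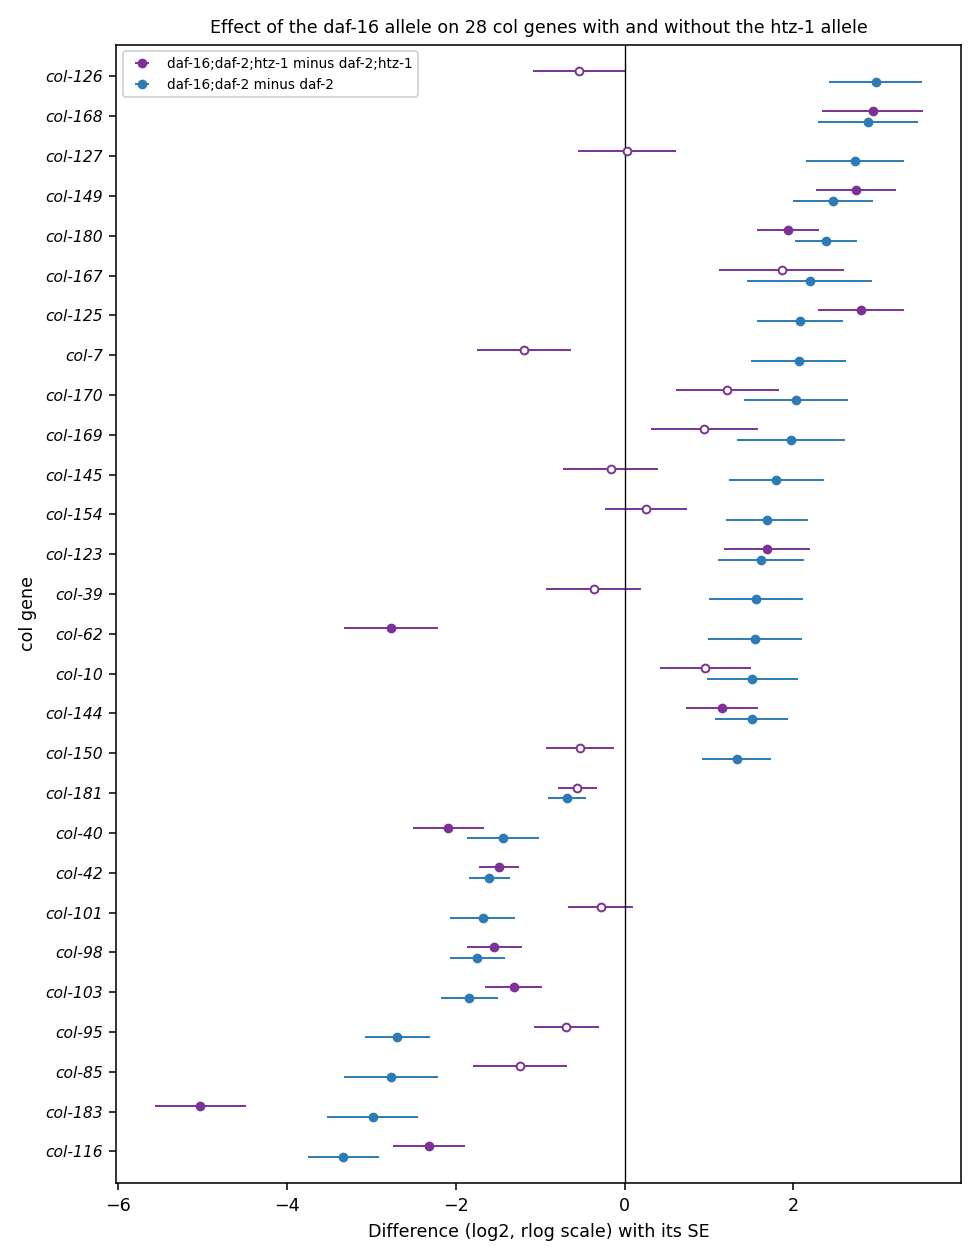
Difference, in log2 units with its SE, of the 28 col genes called in daf-16;daf-2 against daf-2, shown for the triple mutant against daf-2;htz-1 and for daf-16;daf-2 against daf-2. Filled points passed the limma test, and 6 genes rose in both comparisons and 6 fell in both.

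In daf-2;htz-1 against htz-1, 15 col genes rose and 3 fell, where 11.5% of all tested genes rose and 8.04% fell. Fitted to these 2 genotypes alone, 29 rose and 8 fell. The rises were led by col-183 (3.87), col-142 (3.16), col-139 (2.26) and col-40 (2.21). Values of col-142 (chromosome V, 6831177 to 6832256, plus strand) were 14.81, 15.22, 14.90 and 15.07 in the htz-1 double mutant and 11.66, 12.18, 12.22 and 11.29 in htz-1, and the groups were apart by over 2 units. For the dauer gene col-40 they were 5.21, 4.97, 4.72 and 4.97 in the htz-1 double mutant and 2.80, 3.04, 3.42 and 1.78 in htz-1, also apart. Both col-183 and col-40 reach the minimum only with the daf-2;htz-1 libraries counted, so their rises here are descriptions. The 3 falls were those of col-121 (-4.85), col-43 (-2.64) and col-68 (-1.17). That of col-121 is a description, as the gene passed the minimum through htz-1 and the triple mutant. In both daf-2 comparisons col-42, col-85, col-98, col-103 and col-183 rose, 50% of the 10 without the htz-1 allele and 33.3% of the 15 with it, against 32.5% and 18.1% over all tested genes. Among these genes, col-85 reaches the minimum only with the daf-2 libraries counted and col-183 only with those of daf-2;htz-1. Of all tested genes 2.09% rose in both and 1.46% fell in both, and no member fell in both. In daf-2;htz-1 against htz-1, 7 of 10 precuticle and cuticlin genes fell and 1 rose, 5 of 10 molting genes fell, 3 of 6 embryo genes fell and 1 rose, 3 of 12 intestine genes fell and 2 rose, and 3 of 18 sperm and 2 of 11 neuron genes rose. Also, 3 of 5 furrow collagens fell, and 3 of 14 body-shape and strut collagens fell and 1 rose. Of 13 collagen-modifying enzymes 3 fell and 1 rose, and of 9 epidermal and molting-cycle transcription factors 2 fell. Their part was not tested.

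Whether the effect of the htz-1 allele differed between backgrounds was tested as a difference of effects. A positive difference means that the effect in the daf-2 background lay above that in wt. It was positive for 6 col genes and negative for 3, where 7.78% of all tested genes were positive and 5.57% negative. After quantile normalization the counts were 7 and 7, and without wt 1 there were 12 positive ones. The falls of col-142, col-62, col-129, col-139 and col-81 were smaller in the daf-2 background, by 3.10, 2.45, 2.42, 2.29 and 2.22. For col-40 the difference of effects was 1.88, a description only, as the gene reaches the minimum only with the daf-2;htz-1 libraries counted. Without daf-2 1 those of col-62 and col-40 did not pass, at 1.74 (adjusted p = 0.0921) and 1.45 (adjusted p = 0.0967), and both were also lost without several other single libraries. The gene col-81 was named after its values were seen. For col-129 the difference was 2.42 ± 0.47 (SE, adjusted p = 0.00138), and for col-142 it was 3.10 ± 0.47 (SE, adjusted p = 0.000118). The effects on col-121, col-43 and col-76 were lower in the daf-2 background than in wt, with differences of -4.18 ± 0.87 (SE, adjusted p = 0.00236), -3.92 ± 0.59 (SE, adjusted p = 0.000103) and -0.85 ± 0.27 (SE, adjusted p = 0.0377). That of col-121 is a description, as the gene passed the minimum through htz-1 and the triple mutant. That of col-76 was lost without wt 1 (adjusted p = 0.0562) and without most other single libraries. Without wt 1 the differences of col-7 and col-12 also passed, at 2.89 (adjusted p = 0.00491) and 2.61 (adjusted p = 0.0265).

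Between the daf-16;daf-2 and daf-2 backgrounds, the effect of the htz-1 allele was higher for 3 col genes and lower for 10, where 10% of all tested genes were higher and 16.5% lower. The counts were 6 and 9 with each library centred and 7 and 11 after quantile normalization. Without library 3 of the triple mutant the lower count was 16, and col-12 passed at -2.50 (adjusted p = 0.0175). Centring moved the median over all tested genes from -0.11 to 0.17 in this comparison, from 0.03 to 0.27 in the triple mutant against daf-16;daf-2 and from 0.03 to -0.13 in daf-16;daf-2 against daf-2. The falls of col-62, col-126, col-7 and col-127 were deeper in the daf-16;daf-2 background, with differences of -4.32 ± 0.79 (SE, adjusted p = 0.00038), -3.52 ± 0.78 (SE, adjusted p = 0.00193), -3.25 ± 0.79 (SE, adjusted p = 0.00398) and -2.71 ± 0.82 (SE, adjusted p = 0.0169). With the allele col-126 and col-127 averaged 3.08 and 2.36 in the triple mutant and 3.62 and 2.33 in daf-2;htz-1, near the minimum. Without it they averaged 11.92 and 10.73 in daf-16;daf-2 and 8.94 and 7.995 in daf-2. The differences of col-126 and col-127 thus lay mostly in the levels without the allele. For col-62 and col-7 the levels with the allele also differed, at 5.42 and 4.94 in the triple mutant against 8.18 and 6.13 in daf-2;htz-1. The genes col-43, col-121 and col-95 were the 3 higher ones, with 4.23 ± 0.59 (SE, adjusted p = 2.51e-05), 3.20 ± 0.87 (SE, adjusted p = 0.00842) and 2.005 ± 0.55 (SE, adjusted p = 0.00883). That of col-121 is a description, for the reason given above. The tests of these differences and of those between daf-2 and wt share the daf-2 and daf-2;htz-1 libraries. With the batch as a replicate block col-12 passed in both, at 2.12 between daf-2 and wt (adjusted p = 0.0440) and -1.90 between daf-16;daf-2 and daf-2 (adjusted p = 0.0459).

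**Figure D5:**
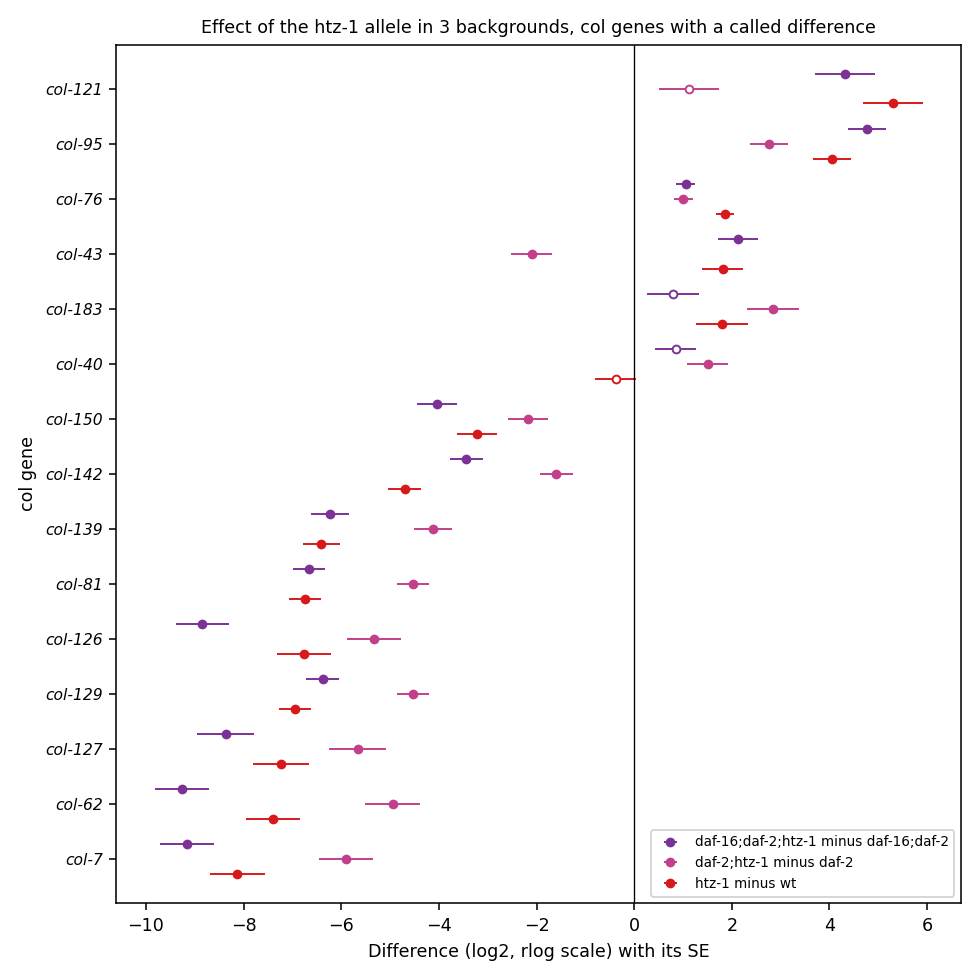
Effect of the htz-1 allele, in log2 units with its SE, in the daf-16;daf-2, daf-2 and wt backgrounds for the 15 col genes with a called difference of effects. Filled points passed the limma test. For col-43 the effect is 2.13, -2.10 and 1.81.

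The collagens known from lifespan work fell with the htz-1 allele in all 3 backgrounds. Overexpression of col-10, col-13 and col-120 extends lifespan in wild-type worms. Values of col-10 (chromosome V, 9164292 to 9165307) were 7.001, 7.24, 9.87 and 5.92 in the triple mutant, 6.12, 6.59, 6.75 and 6.74 in the htz-1 double mutant, and 6.09, 6.35, 6.33 and 6.13 in htz-1, against 10.66, 10.50, 11.66 and 10.28 in daf-16;daf-2, 8.24, 9.45, 9.91 and 9.45 in daf-2, and 9.25, 10.65, 11.40 and 10.36 in wt. Library 3 of the triple mutant, at 9.87, lay within the range of daf-2, and all other libraries with the allele lay below all without it. It fell by 3.27 ± 0.54 (SE, adjusted p = 1.83e-05), fell by 2.71 ± 0.54 (SE, adjusted p = 0.000314) and fell by 4.19 ± 0.54 (SE, adjusted p = 5.53e-07) in the triple mutant, daf-2;htz-1 and htz-1. The values of col-120 (chromosome IV, 9260610 to 9261787) were 4.75, 4.86, 6.77 and 3.63 in the triple mutant, 4.02, 3.81, 4.62 and 4.74 in the htz-1 double mutant, and 3.17, 4.64, 4.67 and 4.10 in htz-1, against 8.76, 9.14, 10.22 and 8.33 in daf-16;daf-2, 7.70, 9.84, 8.15 and 8.92 in daf-2, and 6.50, 9.56, 8.86 and 8.41 in wt. Library 3 of the triple mutant, at 6.77, lay above wt 1, and the libraries were otherwise apart. It fell by 4.11 ± 0.61 (SE, adjusted p = 3.63e-06), fell by 4.36 ± 0.61 (SE, adjusted p = 4.87e-06) and fell by 4.18 ± 0.61 (SE, adjusted p = 3.02e-06). Between daf-2 and wt none of the 3 was called, with differences of -1.15 ± 0.54 (SE, adjusted p = 0.177) for col-10, -0.46 ± 0.51 (SE, adjusted p = 0.611) for col-13 and 0.32 ± 0.61 (SE, adjusted p = 0.782) for col-120.

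The dauer-linked collagens col-183 and col-40 were highest in daf-2;htz-1. Their means over the 24 libraries, 3.535 and 3.206, reach the minimum of 3 only with the daf-2;htz-1 libraries counted. Being highest there is thus partly a condition of their being tested, and is a description only. The gene col-183 had 3.80, 4.04, 3.35 and 2.95 in htz-1, 3.19, 5.29, 5.20 and 4.60 in daf-2, and 2.12, 1.41, 1.82 and 1.58 in wt, and in daf-2;htz-1 the 4 libraries lay between 6.99 and 7.90, above every other library. It rose by 2.84 ± 0.54 (SE, adjusted p = 0.000174) in daf-2;htz-1 against daf-2 and rose by 1.80 ± 0.54 (SE, adjusted p = 0.00706) in htz-1 against wt, while the difference was 0.80 ± 0.54 (SE, adjusted p = 0.231) in the triple mutant against daf-16;daf-2. For col-40 (chromosome II, 1104942 to 1106964) the values were 2.65, 2.17, 3.76 and 2.94 in the triple mutant, 5.21, 4.97, 4.72 and 4.97 in the htz-1 double mutant, and 2.80, 3.04, 3.42 and 1.78 in htz-1, against 1.96, 1.79, 1.85 and 2.51 in daf-16;daf-2, 2.17, 3.94, 4.18 and 3.57 in daf-2, and 2.92, 2.76, 4.10 and 2.78 in wt. All 4 libraries of daf-2;htz-1 lay above all others, and the gene rose by 1.50 ± 0.42 (SE, adjusted p = 0.00615) against daf-2. The difference was 0.85 ± 0.42 (SE, adjusted p = 0.0996) in the triple mutant against daf-16;daf-2 and -0.38 ± 0.42 (SE, adjusted p = 0.474) in htz-1 against wt. The untested col-2 was listed between 1.06 and 2.69 in all 24 libraries.

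Other genes of cuticle construction were counted in the same fit. Beside the lists below, 20.4% to 26.4% of all tested genes rose and 20.1% to 24.5% fell in the 3 htz-1 comparisons. Of 14 named body-shape and strut collagens, 7 fell and 3 rose in the triple mutant, 11 fell and 2 rose in daf-2;htz-1, and 9 fell and 3 rose in htz-1. The falls in htz-1 included bli-6 (-6.04), dpy-13 (-4.21), dpy-4 (-4.02) and sqt-1 (-3.95). The rises were those of dpy-14 (8.50), which is also in the list of embryo genes, dpy-17 (3.88) and sqt-3 (2.45). Of 5 tested collagens of the cuticle furrows, 3 rose in the triple mutant, 1 fell in daf-2;htz-1, and 3 rose and 1 fell in htz-1. Among them dpy-7 differed by 2.95, -0.52 and 4.95, and it was called in the triple mutant and htz-1. The 3 basement membrane collagens, emb-9, let-2 and cle-1, were called in none of the 3.

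Of 10 tested genes of the precuticle and the cuticlins, the glycoproteins laid down before and beside collagen, 8 rose and 1 fell in the triple mutant, 3 rose and 3 fell in daf-2;htz-1, and 8 rose and 1 fell in htz-1. The precuticle gene noah-1 differed by 4.02, -0.11 and 5.16 and let-653 by 2.34, 0.88 and 2.42 in that order. Of 10 molting genes, 5 rose in the triple mutant, 3 rose and 1 fell in daf-2;htz-1, and 4 rose in htz-1. The embryo markers given above were also highest in htz-1 and the triple mutant, and their part was not tested. Of 13 collagen-modifying enzymes, 2 rose and 3 fell, 3 rose and 1 fell, and 3 rose and 4 fell in the same order. The prolyl 4-hydroxylase subunit genes dpy-18, phy-2 and phy-3, whose enzymes hydroxylate collagen prolines, differed by 0.92, 0.79 and -2.25 in htz-1 against wt. Of 9 epidermal and molting-cycle transcription factors, 5 rose and 1 fell in the triple mutant, 1 rose and 2 fell in daf-2;htz-1, and 3 rose and 3 fell in htz-1. In htz-1 against wt the differences put nhr-25 at 2.79, blmp-1 at 1.23, lin-29 at -0.87 and nhr-23 at -0.78.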

How the data were processed

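Per the labels' protocols, RNA of whole young adults was taken up in Trizol, purified on miRNeasy Micro columns and made into SMART-Seq2 libraries, which do not mark strand. The values used are those the authors deposited, regularized log2 (rlog) values, 1 per gene and library. The submitters' processing notes name kallisto 048.0, bcl2fastq 2.20 and the build WBcel235. The sources used here give neither the tool and settings behind the rlog values nor whether batches were corrected for. Depth is therefore unknown, and no counting interval or limit of detection was computed.

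Of the 21689 rows, 20315 had a symbol and all were placed by Ensembl's WBcel235 annotation, release 115. The name table holds 156 col symbols. Of these col-35, col-55 and col-148 had no row and were not analysed here. Genes with a mean of at least 3 over 24 libraries (14482) were tested. With limma 3.58.1 (R 4.3.3), 1 mean per genotype was fitted over the 24 libraries, leaving 18 residual degrees of freedom, with a trended prior variance, 2-sided tests, Benjamini-Hochberg adjustment over all tested genes and a threshold of 0.05. There were 7 pairwise comparisons and 2 differences of effects. Every adjusted p is from this fit unless a setting is named. The script was tested on simulated data.

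Replicate numbers equal the labelled batch, so they pair libraries through the labels. As a check, each library's deviation from its group mean was correlated across genes with those of other genotypes, which gave means of 0.0504 over 60 pairs within a batch and -0.0163 over 180 pairs between batches. What a batch shares, and whether libraries of a genotype came from separate cultures, is not given, so the p-values cover only the spread among libraries, which may be technical. No library repeated another, the smallest root mean square difference being 0.372 within genotypes.

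The members, gene lists, markers and tests were chosen with earlier results of these data known, so counts over them are descriptions. Genes were named by a rule: adult, lifespan and dauer collagens, the 5 highest members, the 8 or 4 largest called rises and falls without overlap in each pairwise comparison, the 4 largest in each difference of effects, and members beside the minimum. Pairs of near-identical proteins were also in the rule, which was not applied. Other genes named, as neighbours or as members of small sets, were chosen after their values were seen. Alternatives were the batch as a replicate block, no filter, libraries centred on their medians, quantile normalization, no trend, a fit of only the genotypes compared and each library left out.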

Additional observations from a re-analysis of the deposited data

Results flagged for a closer look

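A library's value was set apart where its gap to the nearest of the other 3 libraries of its genotype took a larger share of the group's range than Dixon's 95% critical value for 4 values. Chance sets apart about 1 in 20 groups, and 276 groups were tested. The median over the col genes was set apart in daf-2 1, at 8.02 against a median of 9.45 in the other 3 daf-2 libraries. In the same library col-7 was at 9.93 (12.71 in the other 3), col-62 at 11 (13.83), col-13 at 8.90 (11.54), col-12 at 10.54 (13.19), col-167 at 10.27 (12.34), col-146 at 9.85 (12.83) and col-127 at 5.81 (8.70). In wt 1, col-62 was at 11.55 (14.17 in the other 3 wt libraries), col-13 at 9.81 (11.75), col-12 at 11.52 (13.44) and col-180 at 8.12 (9.36).

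In library 3 of the triple mutant, col-76 was at 9.23 (8.23 in the other 3), col-183 at 4.77 (1.59), col-167 at 11.08 (6.74), col-169 at 5.47 (1.69) and col-17 at 7.03 (1.52), all high. In library 4 of that genotype col-7 was low, at 4.50 (5.08). The remaining values set apart were those of col-58 at 2.78 in daf-2;htz-1 3 (1.90) and 2.38 in htz-1 4 (1.97), col-167 at 5.85 in htz-1 1 (4.41), col-95 at 13.58 in htz-1 2 (12.87) and, high in daf-16;daf-2 1, at 9.74 (7.99), col-42 at 12.59 in daf-16;daf-2 1 (11.84), col-140 at 18.63 in daf-2 3 (17.29) and col-40 at 4.10 in wt 3 (2.78).

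The effect of the htz-1 allele differed between the daf-2 and wt backgrounds, by limma's test of the difference itself, for col-62 (2.45, adjusted p = 0.0398), col-40 (1.88, adjusted p = 0.0372), col-121 (-4.18, adjusted p = 0.00236), col-76 (-0.85, adjusted p = 0.0377), col-43 (-3.92, adjusted p = 0.000103), col-142 (3.10, adjusted p = 0.000118), col-139 (2.29, adjusted p = 0.00622) and col-129 (2.42, adjusted p = 0.00138). Between the daf-16;daf-2 and daf-2 backgrounds it differed for col-7 (-3.25, adjusted p = 0.00398), col-62 (-4.32, adjusted p = 0.00038), col-121 (3.20, adjusted p = 0.00842), col-95 (2.00, adjusted p = 0.00883), col-43 (4.23, adjusted p = 2.51e-05), col-183 (-2.04, adjusted p = 0.0489), col-126 (-3.52, adjusted p = 0.00193), col-127 (-2.71, adjusted p = 0.0169), col-142 (-1.84, adjusted p = 0.00614), col-139 (-2.11, adjusted p = 0.00584) and col-129 (-1.85, adjusted p = 0.00554). In these lists col-40 and col-183 reach the minimum only with the daf-2;htz-1 libraries counted. The gene col-121 passed it through htz-1 and the triple mutant. The differences of these genes are descriptions.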

How the results depend on the processing

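No value reversed its direction. Of the counts and levels under the alternatives, 324 stayed within 1.5 times the count or 1 SD of the level reported and 31 did not. For the named genes 2962 calls or non-calls held, 100 calls were lost and 27 were gained. Among the 111 members, the counts that rose or fell with the htz-1 allele in each of its 3 comparisons, that fell in all 3 and that passed the F test kept within 1.5 times under every alternative run. Over all 153 col genes with no filter, the rises were 18 in the triple mutant, 14 in daf-2;htz-1 and 19 in htz-1, against 12, 7 and 11 among the members. Leaving out 1 library at a time gave 66 to 72 falls in the triple mutant against daf-16;daf-2, 71 to 82 in daf-2;htz-1 against daf-2 and 73 to 83 in htz-1 against wt.

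The smaller counts moved. With 1 library left out, daf-2 against wt gave 6 to 11 rises and 2 to 9 falls, daf-16;daf-2 against daf-2 gave 6 to 20 rises, and the triple mutant against daf-2;htz-1 gave 8 to 17 rises. The difference of effects was positive for 4 to 12 genes between daf-2 and wt and negative for 9 to 16 between daf-16;daf-2 and daf-2. Quantile normalization gave 20 falls in daf-16;daf-2 against daf-2, and differences of effects with 7 negative between daf-2 and wt and 7 positive between daf-16;daf-2 and daf-2. Centring each library gave 6 positive in the last. A fit of only the genotypes compared gave 4 rises in daf-2 against wt, 29 rises and 8 falls in daf-2;htz-1 against htz-1, and 5 positive differences between daf-16;daf-2 and daf-2. With wt 1 and daf-2 1 left out, an alternative added after seeing the data, daf-16;daf-2 against daf-2 gave 10 rises and the difference of effects between these backgrounds was positive for 6 genes. The cause of these moves was not tested, beyond the smaller number of libraries where some were left out.

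As the mean over members in place of the median, the collagen level was 7.48 in the triple mutant, 7.31 in daf-2;htz-1 and 7.03 in htz-1, against 10.02 in daf-16;daf-2, 9.77 in daf-2 and 9.79 in wt, a smaller gap than between the medians in all 3 pairs. The median over all 153 col genes was 4.61 in the triple mutant, 4.08 in daf-2;htz-1, 4.01 in htz-1, 6.85 in daf-16;daf-2, 6.57 in daf-2 and 6.37 in wt. With the batch as a replicate block, which changed no other call of a named gene than those given for col-12 and col-13, no count moved by over 1.5 times.

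Calls lost under several alternatives were those of col-169 in daf-2 against wt, col-62, col-10 and col-167 in daf-16;daf-2 against daf-2, col-12 and col-80 in daf-2;htz-1 against htz-1, col-140 in htz-1 and daf-2;htz-1, and col-40, col-62 and col-76 in the difference of effects between daf-2 and wt. The unknown depth limits what can be said of members with low values, since their differences are shrunk.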
